A study of Mus musculus with 30 samples.

Results

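The 9 genes *C1qa*, *C1qb*, *C1qc*, *C4b*, *C3*, *Cfb*, *Cfp*, *C3ar1* and *C5ar1* of the complement system were followed by RNA-seq in mouse bone marrow (BM) and adipose tissue macrophages (ATMs). They were taken by their symbols from 2 tables of gene counts, and all 9 were present among the 13353 genes of the BM table and the 17059 genes of the ATM table. Irradiated recipients on a C57BL/6J background had received BM of Shp2E76K/+;LysM-Cre+ mice, which carry an activating mutation of the phosphatase SHP2 that LysM-Cre switches on in myeloid cells, mixed 1:1 with BM of Boy/J mice. Recipients were wild type (WT) or leptin-deficient and obese (Ob/Ob), and mice of both sexes, 12 to 14 weeks old by the labels, were used. The labels name no donor for single samples, so a difference in donor cells between WT and Ob/Ob recipients could not be checked. For ATMs, a figure legend of the study names WT donor cells for the group set against mutant donor cells. Host cells that outlast irradiation, such as stromal cells and some tissue macrophages, carry no mutation.

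In each tissue 5 groups of 3 libraries were sequenced, with 3 mice per group named in the design, 30 libraries in all. WT recipients were untreated. Ob/Ob recipients were given vehicle (Vehicle), the GLP-1 receptor agonist beinaglutide at 3 mg/kg, an anti–IL-17A antibody at 200 µg per mouse 3 times a week, or both agents (Combo), for 30 days from 8 weeks after transplantation. BM libraries were made from whole bone marrow cells, and ATM libraries from F4/80+ cells sorted from visceral fat. No Ob/Ob group was left without injections, and WT recipients had no vehicle, so Vehicle vs WT compares recipient genotype and injection together. Sex-linked RNA also differed between these groups, as given below.

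Complement is a cascade of plasma proteins that marks microbes and dying cells for removal. C1q, built of the chains encoded by *C1qa*, *C1qb* and *C1qc*, starts the classical pathway, which cleaves C4 and then C3. In the alternative pathway, factor B (*Cfb*) joins the C3 fragment C3b to form a further C3-cleaving enzyme that properdin (*Cfp*) stabilizes. The small fragments C3a and C5a act on leukocytes through the receptors C3aR1 and C5aR1. The liver makes most plasma complement, while tissue macrophages are a main source of C1q, neutrophils store properdin, and stromal cells and macrophages of fat make C3, C4 and factor B.

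On GRCm38, the genome build of the counts, all 9 genes lie on the minus strand. *C1qa* (ENSMUSG00000036887.5, chr4:136895917-136898803), *C1qc* (ENSMUSG00000036896.5, chr4:136889804-136893065) and *C1qb* (ENSMUSG00000036905.8, chr4:136880129-136886187) are neighbors. *C4b* (ENSMUSG00000073418.4, chr17:34728380-34743882) and *Cfb* (ENSMUSG00000090231.10, chr17:34856374-34862518) lie in the major histocompatibility region, and *C3* lies elsewhere on the same chromosome (ENSMUSG00000024164.15, chr17:57203970-57228136). *Cfp* is X-linked (ENSMUSG00000001128.7, chrX:20925454-20931555), *C3ar1* (ENSMUSG00000040552.8) lies at chr6:122847138-122856161 and *C5ar1* (ENSMUSG00000049130.6) at chr7:16246743-16259540. Counts were made over the exons of each gene.

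Promoter sequences of RefSeq on GRCm38.p6, from 250 bases before to 50 after the start, were at hand for 6 of the 9 genes and not for *C1qa*, *C4b* or *Cfb*. Those of *C1qb* (chr4:136886151-136886450) and *C1qc* (chr4:136892865-136893164) are shown as neighboring chains of 1 protein, and that of *C3ar1* (chr6:122856108-122856407) as the gene of the 6 that changed most in BM. They read 5′ to 3′ on the minus strand, and capitals mark matches, on either strand, to GAGGAAGT, a binding motif of PU.1, or to an NF-κB motif of GGG, any 5 bases and CC (GG, any 5 bases and CCC on the other strand). Where 2 NF-κB matches overlap, the capitals run together.
C1qb promoter: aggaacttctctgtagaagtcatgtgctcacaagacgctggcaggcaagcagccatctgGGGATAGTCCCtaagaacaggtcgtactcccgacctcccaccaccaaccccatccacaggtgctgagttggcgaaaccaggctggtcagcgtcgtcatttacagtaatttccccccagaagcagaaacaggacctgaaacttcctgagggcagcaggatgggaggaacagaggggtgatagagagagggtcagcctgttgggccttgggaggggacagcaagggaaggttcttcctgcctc
C1qc promoter: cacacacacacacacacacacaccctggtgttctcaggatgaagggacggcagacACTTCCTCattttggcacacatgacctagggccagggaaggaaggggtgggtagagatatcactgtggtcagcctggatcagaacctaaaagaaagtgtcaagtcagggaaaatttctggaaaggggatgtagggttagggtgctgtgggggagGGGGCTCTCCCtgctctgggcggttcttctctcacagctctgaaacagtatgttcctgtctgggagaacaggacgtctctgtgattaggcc
C3ar1 promoter: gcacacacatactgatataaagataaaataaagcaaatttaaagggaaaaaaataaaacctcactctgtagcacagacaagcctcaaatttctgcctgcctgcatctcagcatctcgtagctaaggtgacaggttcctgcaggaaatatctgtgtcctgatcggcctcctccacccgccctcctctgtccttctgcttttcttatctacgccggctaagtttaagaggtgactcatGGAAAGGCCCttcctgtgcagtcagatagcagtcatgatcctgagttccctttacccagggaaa

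The PU.1 letters occurred once, in *C1qc*, from 195 to 188 bases before the start, and in 3.2% of 32851 mouse promoters. NF-κB letters occurred in all 3 promoters shown and in 50.79% of all promoters. The interferon motif of GAAA, any 2 bases and GAAA (3.44% of promoters), the STAT motif TTCNNNGAA (8.3%) and the C/EBP motif TTNNGCAAT (2.18%) had no match in the 6 promoters. These counts describe letters in these windows.

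Libraries held 31086184 to 39925495 counts in BM and 24876074 to 45300263 in ATMs. Spread between replicates beyond counting error, the biological coefficient of variation, was 3.51% in BM and 32.5% in ATMs as 1 value over all genes. Single genes of the 9 had their own spread in ATMs of Vehicle, as *Cfp* (2285 ± 10.9 normalized counts, SD, n = 3) and *C4b* (12156 ± 1536) show. In BM, the variance between pairs of replicates was 2.02 to 4.21 times that of counting alone over genes (chi-square per degree of freedom). The exception was WT replicate 1, at 34.8 and 26.6 times against replicates 2 and 3. In ATMs the ratio of variances was 11.7 to 26.8. Without WT replicate 1, the same number of the 9 genes was called in each BM comparison with WT. Sex-linked RNA differed between the groups, although the labels state that groups were matched for sex. *Xist*, transcribed from the inactive X of female cells, was at 6339 to 6712 normalized counts in BM of Vehicle, 3528 to 3657 in Combo, 88.3 to 113 in anti–IL-17A and 0 to 5.62 in WT and beinaglutide, and in ATMs at 998 to 1533 in Vehicle, 1041 to 1264 in Combo and 0 to 40.6 in the other groups. The Y-linked *Ddx3y* averaged 45.2, 20.4, 54.9, 42.3 and 4.67 CPM in BM of WT, Vehicle, beinaglutide, anti–IL-17A and Combo. In ATMs it averaged 113, 13, 164, 87.8 and 8.62 CPM. Of 5 sex-linked genes, 1 rose and 4 fell in Vehicle vs WT in each tissue. Against Vehicle in BM, 3 rose and 1 fell with each single agent, and 0 rose and 4 fell in Combo. Against Vehicle in ATMs, 4 rose and 1 fell with each single agent, and 0 were called in Combo. Where these genes differ between groups, sex of the cells cannot be told apart from treatment or recipient.

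In edgeR's quasi-likelihood test, calls needed an adjusted p (Benjamini-Hochberg over all genes of a tissue, the false discovery rate or FDR) below 0.05 and a log2 fold change beyond 1 either way. Values of single libraries are normalized counts, scaled to the mean library of the tissue. In BM, Vehicle vs WT called 3 of the 9 genes higher and 0 lower, against 9.44% and 10% of all genes. Beinaglutide vs Vehicle called 0 higher and 2 lower (all genes, 7.60% and 9.08%), anti–IL-17A vs Vehicle 0 and 4 (7.65% and 8.46%), and Combo vs Vehicle 0 and 5 (6.58% and 11.1%). In ATMs the direction was mostly the opposite. Vehicle vs WT called 2 genes higher and 4 lower (12.5% and 22.9%), beinaglutide vs Vehicle 6 and 2 (20.8% and 10.9%), anti–IL-17A vs Vehicle 7 and 1 (22.4% and 13.1%), and Combo vs Vehicle 5 and 1 (14.1% and 12.2%). These 4 comparisons share the Vehicle libraries, so a high or low value there enters each of them. The 9 genes were chosen with earlier results of these data known, so the counts beside these shares are a description and no test of an excess.

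Combo was also compared with each single agent and with WT. Combo vs beinaglutide called 1 gene higher and 4 lower in BM (4.59% and 8.57% of all genes) and 0 and 1 in ATMs (5.38% and 13.4%). Combo vs anti–IL-17A called 0 and 1 in BM (1.04% and 4.63%) and 0 of 9 in ATMs (3.73% and 10.5%), where edgeR gave 9 genes an unadjusted p below 0.05 and DESeq2 also called 0. Combo vs WT called 1 gene higher and 3 lower in BM (4.40% and 9.93%) and 2 and 0 in ATMs (7.08% and 14.5%). The median log2 fold change over the 9 genes was 0.66 in BM and -0.76 in ATMs for Vehicle vs WT, and -1.43 and 1.11 for Combo vs Vehicle, against -0.02, -0.21, 0.02 and 0.00 over all genes.

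Without the fold limit, nearly all of the 9 genes passed the FDR in each comparison, as did much of the transcriptome. In BM, 9 genes passed in Vehicle vs WT (76.6% of all genes), 8 in beinaglutide vs Vehicle (72.8%), 9 in anti–IL-17A vs Vehicle (73.0%), 9 in Combo vs Vehicle (73.8%), 9 in Combo vs WT (73.3%), 7 in Combo vs beinaglutide (71.4%) and 8 in Combo vs anti–IL-17A (52.5%). In ATMs the counts were 9 (56.9%), 9 (53.8%), 9 (58.1%), 9 (48.7%), 7 (41.1%), 7 (39.8%) and 8 (28.6%) in the same order. A count past the FDR alone is to be read against these shares.

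**Figure D1:**
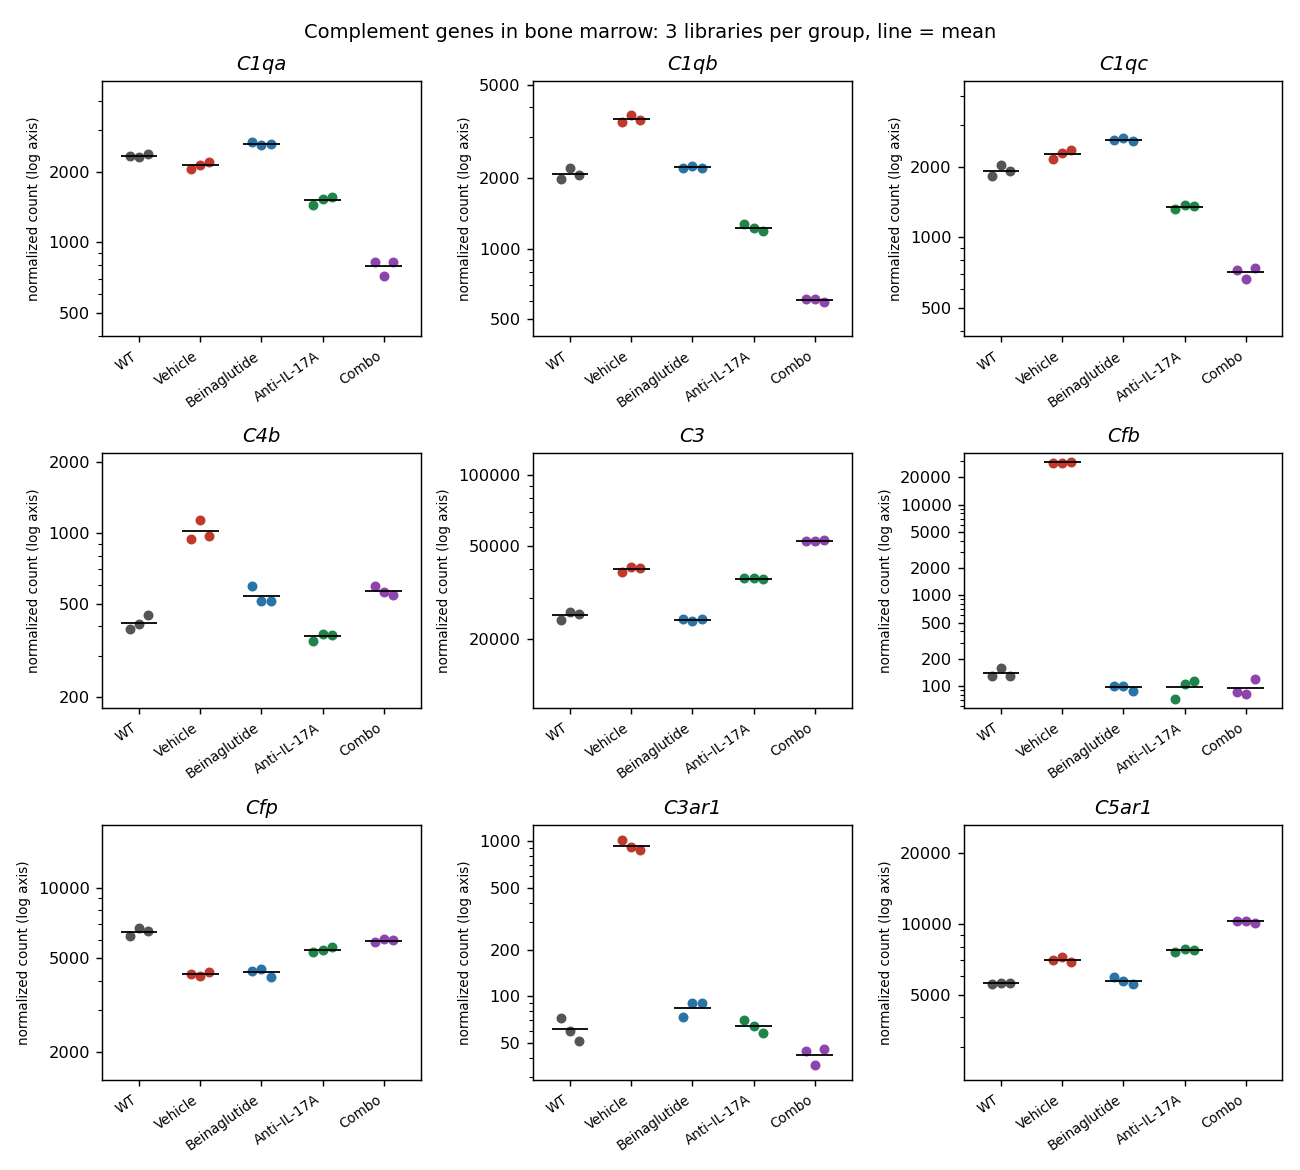
Normalized counts (log axis) of the 9 genes in BM, 3 libraries per group, with a line at each mean. *Cfb* and *C3ar1* stand apart in Vehicle (28646 to 29786 and 871 to 1022), and the *C1q* genes are lowest in Combo.

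The C1q chains, products of macrophages in most tissues, were lowest in Combo in BM and lowest in Vehicle in ATMs. In BM, *C1qa* stood at 2324, 2322 and 2370 normalized counts in WT, 2062, 2141 and 2204 in Vehicle, 2685, 2604 and 2624 with beinaglutide, 1441, 1524 and 1568 with anti–IL-17A and 829, 721 and 824 in Combo. No 2 of the 5 groups overlapped. All 3 chains fell in Combo vs Vehicle, by 1.43, 2.56 and 1.67 on the log2 scale for *C1qa*, *C1qb* and *C1qc* (SE 0.049, 0.047 and 0.051, adjusted p = 1.07e-26, 3.14e-36 and 1.56e-28).

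Of the 3 chains *C1qb* had the largest difference between Vehicle and WT in BM. It stood at 1988, 2214 and 2069 in WT, 3484, 3698 and 3526 in Vehicle, 2215, 2260 and 2205 with beinaglutide, 1270, 1224 and 1194 with anti–IL-17A and 612, 608 and 593 in Combo. Every Vehicle library was above every library of the other groups, and WT and beinaglutide overlapped. The change in Vehicle vs WT passed the FDR but not the fold limit (log2 fold change 0.77 ± 0.041 SE, adjusted p = 3.03e-20), and *C1qb* fell with anti–IL-17A (log2 fold change -1.54 ± 0.043 SE, adjusted p = 7.5e-30). *C1qc* lay between 663 to 744 in Combo and 2583 to 2647 with beinaglutide, with 2161 to 2360 in Vehicle, 1819 to 2037 in WT and 1318 to 1373 with anti–IL-17A.

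Combo was below each single agent for all 3 chains in BM. Against beinaglutide, *C1qa*, *C1qb* and *C1qc* fell by 1.74, 1.88 and 1.88 on the log2 scale. Against anti–IL-17A only *C1qb* was called (log2 fold change -1.02 ± 0.051 SE, adjusted p = 2.16e-20), and the values for *C1qa* and *C1qc* were both -0.93, just inside the fold limit. The 3 chains also fell against WT, with log2 fold changes of -1.56 ± 0.048, -1.79 ± 0.048 and -1.44 ± 0.051 (SE).

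In ATMs the same genes were low in Vehicle and higher with each treatment, with *C1qb* in Combo inside the fold limit. *C1qa* stood at 9059, 9266 and 9741 in WT, 3942, 3708 and 3890 in Vehicle, 13271, 13198 and 12931 with beinaglutide, 19693, 19120 and 18173 with anti–IL-17A and 10349, 9986 and 10327 in Combo. The Vehicle libraries lay below all others, and for each of the 3 chains anti–IL-17A was highest, then beinaglutide, Combo, WT and Vehicle, with no overlap between neighbors. *C1qa* fell in Vehicle vs WT (log2 fold change -1.28 ± 0.044 SE, adjusted p = 6.99e-13) and rose with anti–IL-17A (log2 fold change 2.30 ± 0.045 SE, adjusted p = 7.38e-16).

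*C1qc* followed *C1qa* in ATMs, and *C1qb* differed less between WT and Vehicle. *C1qc* was 14979 to 15309 in WT, 8801 to 9285 in Vehicle, 29076 to 30570 with beinaglutide, 41347 to 42726 with anti–IL-17A and 21298 to 22492 in Combo. *C1qb* was 18590 to 19757 in WT, 16518 to 18302 in Vehicle, 35964 to 38464, 55525 to 57984 and 29656 to 30439 in the treated groups in that order. The groups did not overlap, but the *C1qb* difference between Vehicle and WT was -0.13 ± 0.041 (log2, SE), inside the fold limit. With beinaglutide, *C1qa*, *C1qb* and *C1qc* rose by 1.77, 1.09 and 1.73, with anti–IL-17A by 2.30, 1.69 and 2.23, and in Combo *C1qa* and *C1qc* rose by 1.41 and 1.29 while *C1qb* was at 0.77 (log2 fold changes against Vehicle).

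The summed CPM (counts scaled to the library total after TMM adjustment) of 9 macrophage markers was compared beside these values. All 9 were present in both tables and none was at 0 in a library. In ATMs it was 3598 to 3803 in WT, 2531 to 2738 in Vehicle, 9172 to 9532 with beinaglutide, 12971 to 13219 with anti–IL-17A and 10019 to 10059 in Combo, lowest in Vehicle and highest with anti–IL-17A as for C1q, with *Lyz2* the largest part of it in every treated group (6056, 8689 and 7123 CPM with beinaglutide, anti–IL-17A and Combo). The 9 markers did not move as one, since in Vehicle vs WT 4 fell and 3 rose. *Cd68* (262 and 526 CPM in WT and Vehicle), *Fcgr1* (12.5 and 164) and *Cd14* (232 and 826) were higher in Vehicle. *Csf1r* (547 and 47.6), *Mrc1* (153 and 7.91) and *Lyz2* (2150 and 928) were lower. *Adgre1*, which encodes the F4/80 antigen of the sort, averaged 208, 42.3, 390, 875 and 400 CPM in WT, Vehicle, beinaglutide, anti–IL-17A and Combo. In unsorted BM of Vehicle, *Adgre1* averaged 23.3 CPM, *Csf1r* 139, *Mrc1* 6.69, *Lyz2* 3462, *Cd68* 95.2, *Fcgr1* 218 and *Cd14* 159. How far the Vehicle ATM libraries were enriched in macrophages was not tested. In BM the sum was 13096 to 13370 in WT, 4130 to 4182 in Vehicle, 3423 to 3444 with beinaglutide, 6533 to 6587 with anti–IL-17A and 6510 to 6613 in Combo, which was not the order of C1q there, and *Lyz2*, which neutrophils also express, averaged 12886 CPM of it in WT and 3462 in Vehicle. A list of 5 resident macrophage markers summed in BM to 206 to 207 CPM in WT, 155 to 164 in Vehicle and 237 to 242 with beinaglutide. With anti–IL-17A it was 171 to 172 and in Combo 125 to 133. The sum was highest with beinaglutide and lowest in Combo, as *C1qa* was, and was mostly *Vcam1*, which averaged 120 to 221 CPM by group. These markers did not move as one, since 2 rose and 2 fell in Combo vs Vehicle. *Lyve1* and *Folr2* were highest in WT (3.92 and 4.51 CPM). In ATMs the sum was highest in Vehicle, at 719 to 744, where C1q was lowest, and was mostly *Vcam1* there (668 CPM). The part of these lists in the C1q differences was not tested, and in bulk RNA fewer cells of a type and less RNA per cell cannot be told apart.

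**Figure D2:**
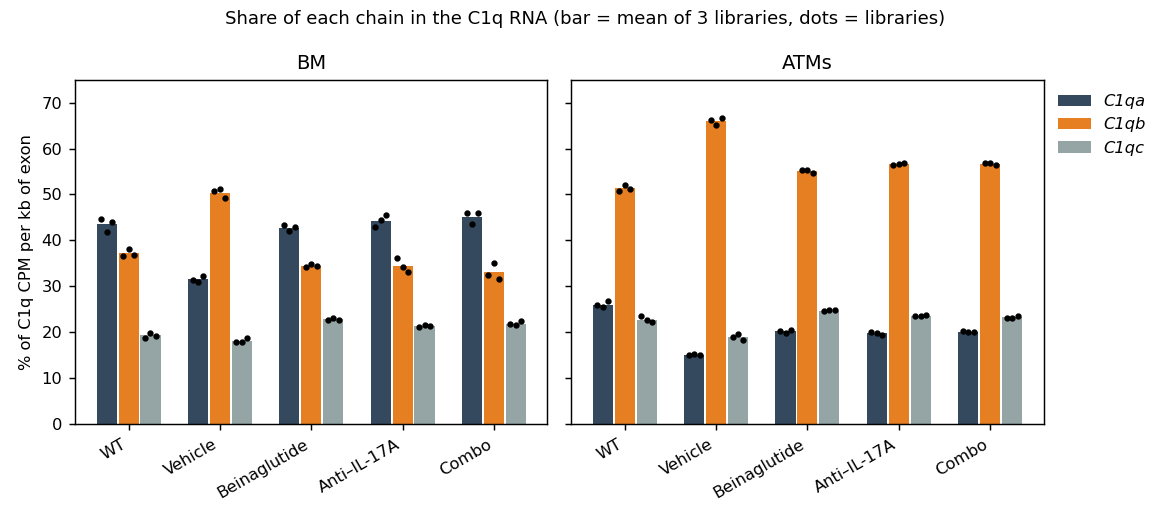
Share of each chain in the C1q RNA, in percent of the summed CPM per kb of exon of the 3 chains, by group in BM and ATMs (bars, mean of 3 libraries, and dots, single libraries). *C1qb* takes 50.4% of the C1q RNA in BM of Vehicle and 33.0% to 37.2% in the other groups, and 66.0% in ATMs of Vehicle against 51.3% to 56.7%.

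The balance of the chains, which join in equal number in the C1q protein, shifted in Vehicle in both tissues. Per kb of exon, *C1qb* made up 50.8%, 51.1% and 49.2% of the C1q RNA in BM of Vehicle and 31.6% to 38.2% in the 12 other BM libraries. In ATMs it made up 66.2%, 65.1% and 66.7% in Vehicle and 50.7% to 56.9% in the 12 others. The *C1qa* share went the other way, with 31.5% ± 0.613 in Vehicle BM (SD, n = 3) against means of 42.7% to 45.1%, and 15.1% ± 0.189 in Vehicle ATMs against 19.8% to 26.0%. Vehicle did not overlap any other group for either share, and with 3 libraries against 3 an exact permutation test could not go below 0.1, so none is given.

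*C4b* encodes complement C4, the first substrate of the classical pathway. In BM it stood at 389, 410 and 447 in WT, 946, 1131 and 972 in Vehicle, 592, 514 and 514 with beinaglutide, 347, 370 and 367 with anti–IL-17A and 592, 560 and 545 in Combo. All Vehicle libraries were above all others, and beinaglutide and Combo overlapped. It rose in Vehicle vs WT (log2 fold change 1.30 ± 0.076 SE, adjusted p = 9.94e-19) and fell with anti–IL-17A (log2 fold change -1.49 ± 0.077 SE, adjusted p = 1.8e-20), while beinaglutide and Combo were lower than Vehicle by less than the fold limit (-0.91 and -0.85).

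In ATMs *C4b* was the reverse. It stood at 26316, 27141 and 25374 in WT, 13590, 12344 and 10536 in Vehicle, 61542, 60216 and 61944 with beinaglutide, 28768, 29599 and 29358 with anti–IL-17A and 26574, 25932 and 26012 in Combo. Vehicle was lowest and beinaglutide highest without overlap, and Combo overlapped WT (log2 difference -0.01 ± 0.062 SE, adjusted p = 0.958). *C4b* fell in Vehicle vs WT (log2 fold change -1.11 ± 0.063 SE, adjusted p = 4.59e-10), rose with beinaglutide (log2 fold change 2.33 ± 0.065 SE, adjusted p = 8.02e-14) and rose less with anti–IL-17A and Combo (1.27 and 1.11). Combo was below beinaglutide (log2 fold change -1.23 ± 0.063 SE, adjusted p = 3.73e-10), the only call among the 9 genes in that comparison of ATMs. Of the 100-base stretches of *C4b* exons, 15.23% are identical in its neighbor *C4a*, so its counts are uncertain to that extent, and *C4a* itself had 10 to 50 counts per BM library.

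*C3* encodes the protein on which all complement pathways converge. Per kb of exon it had the highest mean of the 9 genes in ATMs of WT, beinaglutide and Combo. In BM, *C3* stood at 24187, 26110 and 25691 in WT, 38672, 40789 and 40362 in Vehicle, 24377, 23946 and 24385 with beinaglutide, 36530, 36314 and 35982 with anti–IL-17A and 52313, 52532 and 52887 in Combo. Combo was highest, and WT and beinaglutide overlapped. *C3* was called in Combo vs WT (log2 fold change 1.05 ± 0.025 SE, adjusted p = 2.83e-32) and Combo vs beinaglutide (log2 fold change 1.12 ± 0.025 SE, adjusted p = 5.76e-33), and its difference in Vehicle vs WT was 0.66 ± 0.024 (log2, SE), past the FDR alone.

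In ATMs *C3* fell in Vehicle and was higher in every treated group. It stood at 196030, 197654 and 194253 in WT, 58584, 61197 and 54667 in Vehicle, 292199, 271270 and 279021 with beinaglutide, 115658, 120262 and 123839 with anti–IL-17A and 159358, 159330 and 161726 in Combo. No 2 groups overlapped. *C3* fell in Vehicle vs WT (log2 fold change -1.75 ± 0.038 SE, adjusted p = 2.89e-15), and rose with beinaglutide (log2 fold change 2.27 ± 0.038 SE, adjusted p = 2.22e-16) and in Combo (log2 fold change 1.46 ± 0.037 SE, adjusted p = 3.46e-14). The rise with anti–IL-17A was 1.04 ± 0.037 (log2, SE), and 0.99, under the fold limit, without Vehicle replicate 3.

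The summed CPM of 6 stromal and fibroblast markers, all present and none at 0 in a library, was read beside *C3* and *C4b*. In ATMs it was 14903 to 15802 in WT, 5806 to 6216 in Vehicle, 23690 to 24123 with beinaglutide, 15090 to 15363 with anti–IL-17A and 13064 to 13405 in Combo, so it was lowest in Vehicle and highest with beinaglutide, as both genes were. Of the 6 markers, 4 fell in Vehicle vs WT, and 6, 5 and 3 rose with beinaglutide, anti–IL-17A and Combo against Vehicle. In BM it was 22 to 103 over all groups, with the lowest values in WT. The part of stromal cells in the *C3* and *C4b* differences was not tested.

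**Figure D3:**
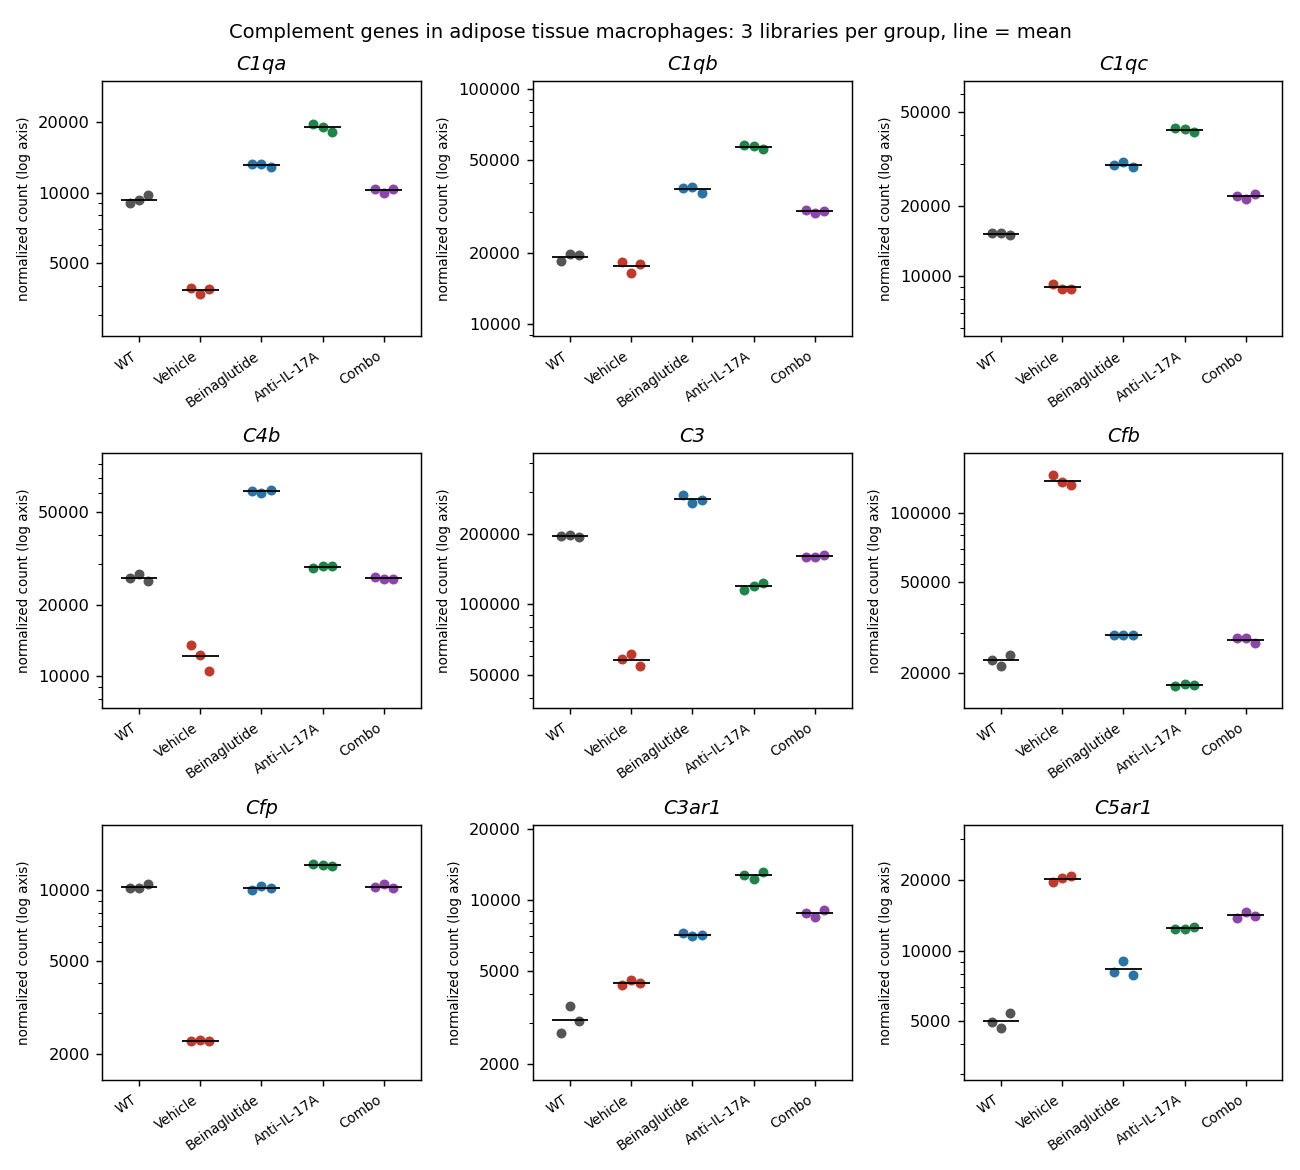
Normalized counts (log axis) of the 9 genes in ATMs, 3 libraries per group, with a line at each mean. In Vehicle, *Cfb* (132292 to 146720) and *C5ar1* (19602 to 20787) are highest and the *C1q* genes, *C4b*, *C3* and *Cfp* are lowest.

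*Cfb*, the serine protease of the alternative pathway, showed the largest change of the 9 genes in both tissues in Vehicle vs WT. In BM it stood at 128, 160 and 128 in WT, 28646, 29032 and 29786 in Vehicle, 101, 99 and 88.9 with beinaglutide, 71.1, 106 and 114 with anti–IL-17A and 86.4, 81.5 and 118 in Combo. Vehicle was far above the other 4 groups, whose 12 libraries lay between 71.1 and 160. It rose 210-fold in Vehicle vs WT (log2 fold change 7.72 ± 0.076 SE, adjusted p = 1.19e-21).

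With each treatment BM *Cfb* lay below all 3 WT libraries. Its log2 fold changes against Vehicle were -8.23 ± 0.079 with beinaglutide, -8.21 ± 0.079 with anti–IL-17A and -8.25 ± 0.081 in Combo (SE), with adjusted p of 9.48e-22, 1.04e-21 and 1.04e-21. The difference of Combo from beinaglutide or anti–IL-17A did not pass the FDR (adjusted p = 0.922 and 0.858). Against WT, Combo was at -0.54 ± 0.15 (log2, SE), past the FDR but inside the fold limit.

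In ATMs *Cfb* moved the same way, from a higher base. It stood at 22938, 21450 and 23932 in WT, 146720, 137203 and 132292 in Vehicle, 29417, 29317 and 29374 with beinaglutide, 17564, 17850 and 17705 with anti–IL-17A and 28359, 28544 and 27196 in Combo. The Vehicle libraries were above all others, and anti–IL-17A lay below WT. It rose 6.09-fold in Vehicle (log2 fold change 2.61 ± 0.043 SE, adjusted p = 1.39e-16), and its log2 fold changes against Vehicle were -2.24 ± 0.043, -2.97 ± 0.044 and -2.31 ± 0.043 (SE) with beinaglutide, anti–IL-17A and Combo. It was the only one of the 9 genes that was called in both tissues in the same direction in Vehicle vs WT and in each of the 3 treatments against Vehicle.

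*Cfb* overlaps *Gm20547*, a gene model that reads through from the neighboring *C2*, along 79.5% of its exon length, and reads there count for each gene. *C2*, the classical pathway counterpart of *Cfb*, stood at 23 to 63 counts in BM of Vehicle and 1 to 21 in the other BM libraries, against 24829 to 27035 counts of *Cfb* in Vehicle. In ATMs *C2* was 9680 to 10397 normalized counts in WT and 7836 to 9486 in Vehicle, a difference that did not pass the FDR (log2 fold change -0.17 ± 0.091 SE, adjusted p = 0.118). Against Vehicle, ATM *C2* was lower in each treated group, as *Cfb* was, with log2 fold changes of -0.72 with beinaglutide, inside the limit, and -1.70 and -1.67 with anti–IL-17A and Combo, both called.

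Interferon-induced genes were highest in the same libraries as *Cfb*. The summed CPM of 9 such genes, *Isg15*, *Irf7* and *Mx1* among them, was 5524 to 5564 in BM of Vehicle and 191 to 513 in the other BM libraries. In ATMs it was 22345 to 22812 in Vehicle and 482 to 971 in the others. Of the 9 genes, 8 rose in BM and 9 in ATMs in Vehicle vs WT, and all 9 fell with each treatment in both tissues. Whether they and *Cfb* have a common source was not tested.

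*Cfp* encodes properdin, which neutrophils and macrophages release. In BM it was highest in WT at 6237, 6729 and 6553, and stood at 4288, 4224 and 4387 in Vehicle, 4430, 4523 and 4180 with beinaglutide, 5303, 5451 and 5575 with anti–IL-17A and 5855, 6030 and 5957 in Combo. Vehicle and beinaglutide overlapped, and no BM comparison of *Cfp* reached the fold limit, the largest being -0.60 ± 0.032 (log2, SE) in Vehicle vs WT. Its gene is X-linked, and *Xist* RNA was highest in Vehicle and next in Combo in BM. The part of sex in the *Cfp* differences was not tested.

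In ATMs the Vehicle group stood apart. *Cfp* was 10163, 10218 and 10568 in WT, 2280, 2297 and 2277 in Vehicle, 10009, 10371 and 10193 with beinaglutide, 12947, 12833 and 12696 with anti–IL-17A and 10303, 10580 and 10160 in Combo. WT overlapped both beinaglutide and Combo, and all Vehicle libraries were far below. *Cfp* fell in Vehicle vs WT (log2 fold change -2.17 ± 0.039 SE, adjusted p = 2.62e-16) and rose with beinaglutide, anti–IL-17A and Combo (log2 fold changes 2.16 ± 0.039, 2.49 ± 0.04 and 2.18 ± 0.039, SE). Combo differed from WT by 0.00 ± 0.037 (log2, SE, adjusted p = 0.943).

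*C3ar1*, the receptor for the C3 fragment C3a, followed *Cfb* in BM. It stood at 72.7, 59.5 and 51.7 in WT, 1022, 917 and 871 in Vehicle, 73.1, 90.3 and 89.9 with beinaglutide, 70, 63.8 and 58 with anti–IL-17A and 44.2, 36 and 45.9 in Combo. Vehicle did not overlap any other group, and anti–IL-17A overlapped WT. *C3ar1* rose 15.1-fold in Vehicle vs WT (log2 fold change 3.92 ± 0.12 SE, adjusted p = 2.8e-28), and fell with beinaglutide, anti–IL-17A and Combo by 3.47, 3.87 and 4.47 on the log2 scale (SE 0.11, 0.12 and 0.13). It was lower in Combo than with beinaglutide by a log2 difference at the limit (log2 fold change -1.0 ± 0.17 SE, adjusted p = 2.76e-06), which was -0.96 to -0.90, inside the limit, without beinaglutide replicate 2 or 3 or Combo replicate 2.

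In ATMs *C3ar1* was lowest in WT, not Vehicle. It stood at 2725, 3528 and 3044 in WT, 4340, 4568 and 4436 in Vehicle, 7215, 7039 and 7103 with beinaglutide, 12756, 12312 and 13175 with anti–IL-17A and 8820, 8490 and 9113 in Combo. No 2 groups overlapped. The rise with anti–IL-17A was called (log2 fold change 1.52 ± 0.072 SE, adjusted p = 5.04e-11), the difference in Vehicle vs WT was 0.52 ± 0.072 and that with beinaglutide 0.68 ± 0.071. Combo vs Vehicle was at 0.99 ± 0.071 (log2, SE), just inside the limit, and 1.01 without Vehicle replicate 2 or Combo replicate 2.

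*C5ar1*, the receptor for C5a on neutrophils and macrophages, was called in no BM comparison. It was 5554, 5611 and 5588 in WT, 7015, 7260 and 6890 in Vehicle, 5943, 5695 and 5580 with beinaglutide, 7621, 7792 and 7743 with anti–IL-17A and 10334, 10313 and 10118 in Combo. Combo was highest, WT and beinaglutide overlapped, and the log2 fold changes stayed inside the limit (Combo vs WT 0.88 ± 0.027, log2, SE).

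In ATMs *C5ar1* was highest in Vehicle. It stood at 4985, 4666 and 5455 in WT, 19602, 20324 and 20787 in Vehicle, 8130, 9050 and 7853 with beinaglutide, 12407, 12351 and 12601 with anti–IL-17A and 13832, 14588 and 14029 in Combo. No 2 groups overlapped. It rose in Vehicle vs WT (log2 fold change 2.01 ± 0.061 SE, adjusted p = 1.7e-13) and fell with beinaglutide (log2 fold change -1.28 ± 0.059 SE, adjusted p = 4.29e-11), while anti–IL-17A and Combo were at log2 fold changes of -0.70 and -0.52, inside the limit. Against WT, *C5ar1* and *C3ar1* were higher in Combo by log2 fold changes of 1.49 ± 0.06 and 1.51 ± 0.072 (SE), the 2 calls of that comparison in ATMs.

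Neutrophil markers were far higher in ATMs of Vehicle and Combo than in the other groups, and *C5ar1* was highest in these 2 groups. With beinaglutide and anti–IL-17A, where these markers were low, *C5ar1* was also above WT (7853 to 9050 and 12351 to 12601 against 4666 to 5455). Of 8 neutrophil markers listed, 7 were in each table, and their summed CPM in ATMs was 182 to 203 in WT, 20059 to 21283 in Vehicle, 139 to 141 with beinaglutide, 342 to 357 with anti–IL-17A and 11958 to 12259 in Combo, none at 0 in a library. All 7 rose in Vehicle vs WT. The sum was higher in Vehicle than in Combo through *S100a8* (9590 and 3666 CPM) and *S100a9* (6345 and 2731), while the other 5 markers had their highest means in Combo, and 3 rose and 2 fell in Combo vs Vehicle. In BM, where neutrophil RNA is abundant, the sum ranged only from 77551 with beinaglutide to 132636 in Combo, the group with the highest *C5ar1* and *C3* there. The part of neutrophils in the *C5ar1* differences was not tested.

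**Figure D4:**
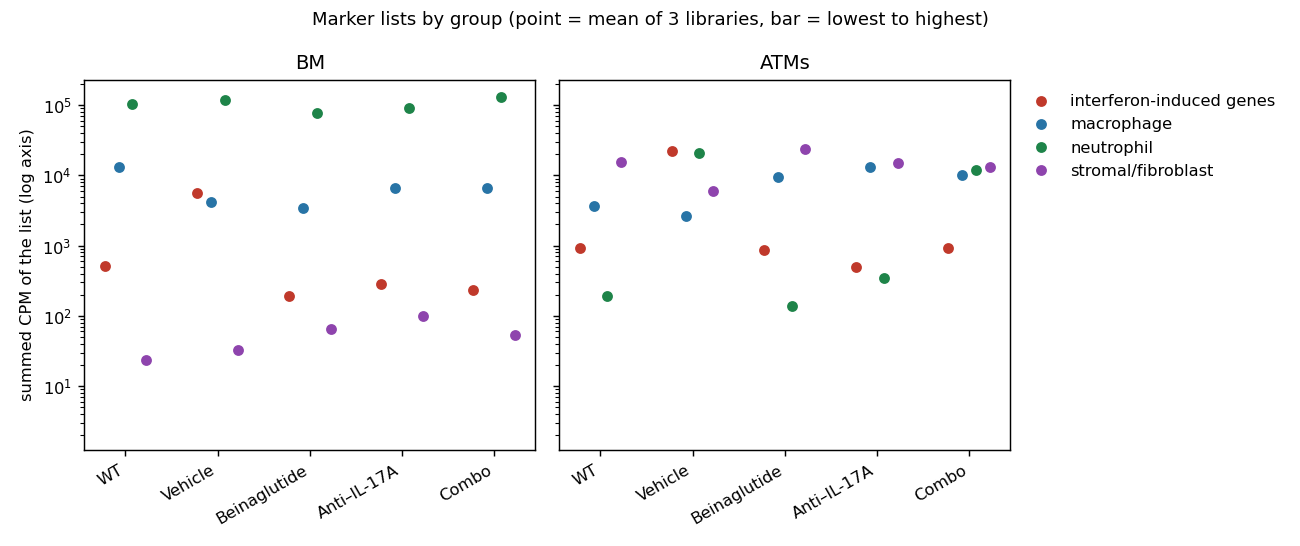
Summed CPM (log axis) of 4 marker lists by group in BM and ATMs (points, mean of 3 libraries, with bars from lowest to highest that are mostly shorter than the points). In ATMs of Vehicle, interferon-induced genes (22345 to 22812) and neutrophil markers (20059 to 21283) have their highest sums, and macrophage and stromal markers their lowest.

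Lists of other cell types were read in the ATM libraries by their calls, since 1 gene made up most of several sums. In Vehicle vs WT, 4 of 5 B cell, 3 of 4 T cell and 5 of 5 mesothelial markers fell and 0 rose, and of 5 endothelial markers 3 rose and 1 fell. Adipocyte markers split, with 2 higher and 3 lower of 6, and *Fabp4* (997 CPM in WT and 4024 in Vehicle) was most of their sum. Of 5 resident macrophage markers 4 fell, and only *Vcam1* (160 and 668 CPM) rose. Dendritic cell markers had 1 higher and 1 lower of 5, with *Cd209a* at 0 in Vehicle, monocyte markers 1 and 2 of 5, and erythroid markers 1 and 0 of 3, with *Alas2* (3945 and 6659 CPM) most of the sum.

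Genes of pancreas and of epididymis were highest in different groups of ATM libraries. *Crisp1*, of the epididymis, averaged 3023 CPM in WT, 0.195 in Vehicle, 43.7 with beinaglutide, 138 with anti–IL-17A and 0.148 in Combo. The pancreatic genes *Prss2*, *Pnlip* and *Cpa1* averaged 297, 111 and 63.8 CPM in Combo and 0.31, 0 and 0 in WT. The part of other cells in the results was not tested.

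Compared per kb of exon, the scale on which levels of different genes can be set side by side, *Cfb* passed *C3* only in Vehicle. In BM of Vehicle, *Cfb* averaged 296 ± 5.89 CPM per kb and *C3* 223 ± 6.25 (SD, n = 3), while in WT they averaged 1.41 and 141. In ATMs of Vehicle, *Cfb* averaged 1480 ± 78.2 and *C3* 341 ± 19.3, and in WT 243 and 1148. The lowest levels were those of *C3ar1* in BM of Combo, at 0.28 CPM per kb, and of *C3ar1* and *Cfb* in the other BM groups except Vehicle, where none passed 1.41. *C4b* was low in BM in every group, from 1.82 to 5.12, against 64.3 to 324 in ATMs.

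**Figure D5:**
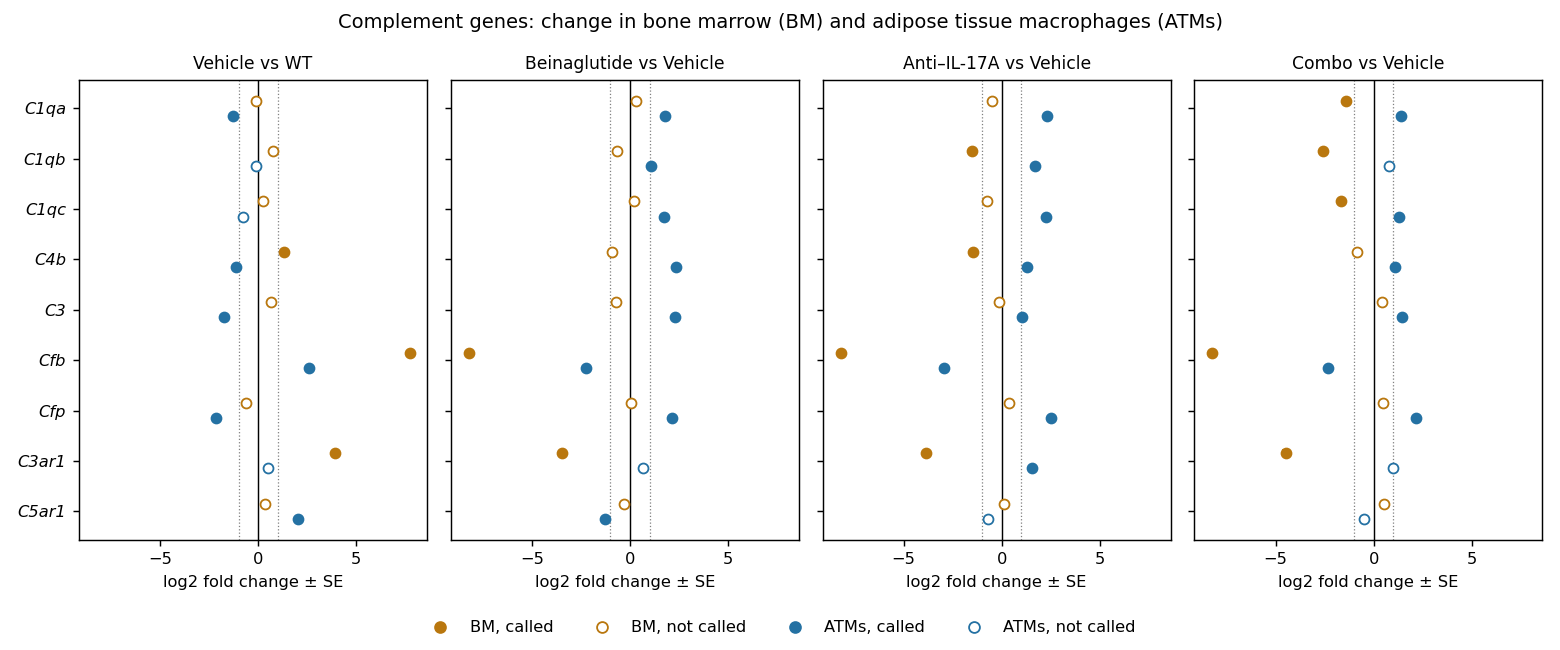
Log2 fold changes with SE (bars, mostly shorter than the points) of the 9 genes in 4 comparisons, in BM and ATMs. Filled points were called, and dotted lines mark the limit of 1. Against Vehicle, the *C1q* genes and *C4b* point left or near 0 in BM and right in ATMs, and *Cfb* points left in both.

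An interaction term, fitted to the 30 libraries together over the 13076 genes present in both tables, compared each effect in ATMs with that in BM. All 9 genes differed between ATMs and BM in each of the comparisons tested. In Vehicle vs WT, 1 gene changed more positively in ATMs (*C5ar1*) and 8 more negatively, against 26.9% and 29.1% of all genes. In Combo vs Vehicle, 8 were more positive in ATMs and 1, *C5ar1*, more negative (32.0% and 23.1% of all genes). The same split of 8 and 1 held for beinaglutide vs Vehicle (30.5% and 22.9%) and anti–IL-17A vs Vehicle (30.6% and 25.8%), which were added after the values were seen.

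For *Cfb*, the difference between tissues was one of size, rising in both, with an interaction of -5.11 ± 0.11 (log2, SE) in Vehicle vs WT. For *C3* and *C4b* it was one of direction. *C3* differed by -2.41 ± 0.049 (adjusted p = 7.58e-24) and *C4b* by -2.40 ± 0.1 (adjusted p = 7.44e-17), higher than WT in BM of Vehicle and lower in its ATMs. For the C1q chains the tissues differed in Combo vs Vehicle by 2.88 ± 0.068, 3.38 ± 0.062 and 3.00 ± 0.062 for *C1qa*, *C1qb* and *C1qc* (SE). *C3ar1* differed by 5.5 ± 0.14 in the same comparison, falling in BM and not in ATMs.

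Other genes of the pathway were read from a list of 42, of which 31 were tested in BM and 37 in ATMs. In BM, 5 rose and 7 fell in Vehicle vs WT, against 9.44% and 10% of all genes, and 5 rose and 6 fell in Combo vs Vehicle, against 6.58% and 11.1%. *Cr2*, the B cell receptor for C3 fragments, was 469 to 551 in WT and 68.4 to 74.1 in Vehicle and fell (log2 fold change -2.84 ± 0.13 SE, adjusted p = 5.87e-22), beside a summed CPM of 5 B cell markers of 1078 to 1096 and 313 to 330. *Scarf1*, a scavenger receptor that binds C1q, rose (log2 fold change 2.33 ± 0.12 SE, adjusted p = 3.44e-21), and *C2* rose at few counts (log2 fold change 1.82 ± 0.42 SE, adjusted p = 0.000233). In Combo vs Vehicle, *Clu*, which encodes clusterin, an inhibitor of the terminal complex, was 275 to 286 in Vehicle and 857 to 892 in Combo and rose (log2 fold change 1.65), and *C2* and *C4a*, with at most 63 counts in a library, fell (-2.89 and -1.54).

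In ATMs, of 37 genes, 4 rose and 16 fell in Vehicle vs WT (12.5% and 22.9% of all genes), and 13 rose and 7 fell in Combo vs Vehicle (14.1% and 12.2%), with medians of -0.60 and 0.59 against -0.21 and 0.00 over all genes. The medians were the same with genes near 0 counts set at their bound. Of the regulators 5 of 14 tested fell and of the terminal components 4 of 5, and 0 of either rose, to be read against the same 22.9% and 12.5% of all genes. *C7*, a component of the membrane attack complex, was at 30994, 31850 and 31328 in WT and 1277, 527 and 940 in Vehicle (log2 fold change -5.10 ± 0.22 SE, adjusted p = 1.27e-11), and *Fcna*, the macrophage ficolin that starts the lectin pathway, at 13870, 14117 and 14642 and 110, 204 and 177 (log2 fold change -6.45 ± 0.15 SE, adjusted p = 8.07e-15).

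Genes that were at 0 in ATMs of Vehicle are given as bounds against a floor of 3 counts per library. *C4bp*, the C4 inhibitor, had 411 to 473 counts in WT and 0 in every Vehicle and Combo library, at least 117-fold lower in Vehicle. Against Vehicle it was at least 11.2-fold higher with beinaglutide and 54.6-fold with anti–IL-17A. *Crisp1* of the epididymis also ranked WT, anti–IL-17A and beinaglutide in this order, with Vehicle and Combo lowest, and whether both share a source was not tested. *Cpn1*, a carboxypeptidase that inactivates C3a and C5a, had 35 to 50 counts in WT and 0 in Vehicle, at least 10.6-fold lower. In Combo vs Vehicle, *Fcna* rose to a range of 1824 to 2135 (log2 fold change 3.62 ± 0.14 SE, adjusted p = 5.53e-12) and *Fcnb*, the ficolin of neutrophils, rose too, with 96.2 to 133 in Vehicle and 1027 to 1149 in Combo (log2 fold change 3.28). *Vsig4*, a macrophage receptor for C3b, was at 92.2, 2.94 and 0 in Vehicle, with 1 library apart from the other two, and 567 to 704 in Combo (log2 fold change 4.26 ± 0.71 SE). *Masp1*, a protease of the lectin pathway, was 789 to 1127 in Vehicle and 37.9 to 116 in Combo and fell (log2 fold change -3.66).

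The genes most like each of the 9 were taken by the correlation of log2 CPM over the 15 libraries of a tissue, which holds the differences between groups and is a description without a test. In BM, *Cfb* was closest to *Ifih1*, *Stat2* and *Daxx* (Pearson r of 0.9981, 0.9969 and 0.9961), and *C3ar1* to *Serpina3f*, *Lgals3bp* and *H3f3b* (0.9938, 0.9929 and 0.9924). In ATMs *Cfb* was closest to *Nfkbia*, *H2-K1* and *Cd274* (0.9954, 0.9945 and 0.9941). There *C3* was closest to *Colec12*, *Lamb1* and *Lama4* (0.9852, 0.9840 and 0.9835) and *C4b* to *Col6a1*, *Sparcl1* and *Ss18* (0.9837, 0.9830 and 0.9807).

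For the C1q chains, *Cfp* and the receptors in ATMs the closest genes were others. *C1qc* was nearest to *Hexa*, *Creg1* and *Psap* (0.9954, 0.9920 and 0.9889), *C1qa* to *Pltp*, *Abhd12* and *Tpp1* (0.9945, 0.9939 and 0.9895), and *Cfp* to *Gm2a*, *Csf1r* and *Slc9a9* (0.9971, 0.9919 and 0.9909). *C1qb* was nearest to *Anxa5* (0.9857), *C3ar1* to *AF251705*, *Tyrobp* and *Cd84* (0.9853, 0.9833 and 0.9801) and *C5ar1* to *Pkm* (0.9911). In BM, *C1qa* was nearest to *Fundc2* (0.9818), *C1qb* to *Pla2g16* (0.9912), *C1qc* to *Txnip* (0.9917), *C3* to *Siglece* (0.9958), *C4b* to *Tor1a* (0.9734), *C5ar1* to *Elmo1* (0.9876) and *Cfp* to *Hexa* (0.9879). Among the 9, r between *C1qa* and *C1qc* was 0.98 in BM and 0.97 in ATMs, and r between *C3* and *C4b* was 0.34 in BM and 0.91 in ATMs.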

How the data were processed

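RNA of whole BM cells and sorted ATMs was sequenced from polyA-selected, unstranded libraries. Per the labels, STAR 2.7.2a was used by the authors for alignment to mm10 and reads were counted over exons with featureCounts 2.0.1, counting a read on several genes for each, and deposited raw counts per gene with low genes already left out by a rule not given in the sources used here. No tables of comparisons were used. The 9 genes and the gene and marker lists were chosen with earlier results of these data known. Counts were tested per tissue over all 15 libraries with edgeR 4.0.16 in R 4.3.3 (TMM scaling, filterByExpr, which removed 0 genes, robust quasi-likelihood test, 2-sided). Calls needed FDR below 0.05 and a log2 fold change beyond 1. Tissues were compared by an interaction in 1 fit of 30 libraries. Values per library are counts scaled, by effective library size, to the average library of the tissue. All 9 genes are named. Of the other pathway genes, at most the 4 of largest change per comparison, with a mean of at least 10 counts and no overlap, are named in Vehicle vs WT and Combo vs Vehicle. A gene that this rule picks is not reported here. *C2* in ATMs was chosen for its place beside *Cfb*. Likeness used log2 CPM with a prior count of 2, and the 3 genes of highest r were kept. The fits were tested on simulated data. Alternatives included DESeq2 1.42.0. The design names 3 mice per group but the labels tie no library to a mouse, so p-values measure the spread between these samples, which may be technical.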

Additional observations from a re-analysis of the deposited data

Results flagged for a closer look

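All 9 complement genes drew attention in the same way. The effect of each comparison differed between ATMs and BM when the difference itself was tested, as an interaction in edgeR's quasi-likelihood fit of all 30 libraries at an FDR below 0.05. The values that follow are log2 fold changes in ATMs minus those in BM. Of all genes, 56.0%, 53.4%, 56.4% and 55.1% differed in this way in the 4 comparisons, so 9 of 9 is to be read against a broad difference between the tissues, and the comparisons share the Vehicle libraries.

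In Vehicle vs WT the difference was -0.90 for *C1qb*, -0.99 for *C1qc*, -1.15 for *C1qa*, -1.57 for *Cfp*, -2.40 for *C4b*, -2.41 for *C3*, -3.39 for *C3ar1*, -5.11 for *Cfb* and 1.67 for *C5ar1*. In beinaglutide vs Vehicle it was 1.46 for *C1qa*, 1.53 for *C1qc*, 1.76 for *C1qb*, 2.13 for *Cfp*, 2.99 for *C3*, 3.24 for *C4b*, 4.14 for *C3ar1*, 5.99 for *Cfb* and -0.99 for *C5ar1*. In anti–IL-17A vs Vehicle it was 1.16 for *C3*, 2.12 for *Cfp*, 2.73 for *C4b*, 2.78 for *C1qa*, 2.95 for *C1qc*, 3.20 for *C1qb*, 5.22 for *Cfb*, 5.37 for *C3ar1* and -0.86 for *C5ar1*. In Combo vs Vehicle it was 1.11 for *C3*, 1.75 for *Cfp*, 1.99 for *C4b*, 2.88 for *C1qa*, 3.00 for *C1qc*, 3.38 for *C1qb*, 5.5 for *C3ar1*, 5.99 for *Cfb* and -1.02 for *C5ar1*. Beinaglutide vs Vehicle and anti–IL-17A vs Vehicle were added after the values were seen. With 3 libraries per group, no group was tested for a library far from the rest.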

How the results depend on the processing

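Counts of called genes among the 9 stayed within 1.5 times under DESeq2 (18 counts), DESeq2 size factors (18), a minimum of 10 counts in every library (18), fits of only the groups compared (14) and each library left out (132). Testing without a filter was the same fit, since the filter removed 0 genes. Without the fold limit 9 counts moved and 5 did not. Then 9, 8, 9 and 9 genes passed in BM in Vehicle vs WT and beinaglutide, anti–IL-17A and Combo vs Vehicle, 9 in Combo vs WT and 8 in Combo vs anti–IL-17A, and in ATMs 7, 7 and 8 in Combo vs WT, beinaglutide and anti–IL-17A. Of values for single genes, 3 became called, 4 were lost, and 14 uncalled ones near 0 changed sign. The last were *Cfb* in BM in Combo vs beinaglutide (-0.20 to 0.08 against -0.02) and vs anti–IL-17A (-0.22 to 0.09 against -0.04) and *Cfp* in ATMs in Combo vs WT (-0.01 to 0.02 against 0.00) with a library left out, and *C4b* in ATMs in Combo vs WT (-0.03 to 0.02 with a library left out, 0.01 with the minimum of 10 and 0.04 with only the groups compared, against -0.01). The cause was not tested. The minimum of 10 left 12064 ATM genes, and calls over all genes in ATM Combo vs anti–IL-17A went from 637 higher and 1792 lower to 413 and 355. DESeq2 size factors took the median of all genes in the interaction of Combo vs Vehicle from 0.15 to 0.04. With the replicate number as a block, the counts in BM were 3, 2, 4 and 5 and in ATMs 6, 8, 8 and 6, and no call changed. Within a tissue, same-numbered libraries of different groups did not deviate together (median r -0.00527 in BM and -0.00443 in ATMs). Whether a same-numbered BM and ATM library of a group came from 1 mouse was not tested.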
